A study of Mus musculus with 10 samples.

Results

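Interferon-stimulated genes are the antiviral and immune effector genes that cells switch on when an interferon binds its receptor. A set of 37 of them was followed through RNA-seq of CD31+ cells sorted from B16F10 tumours, out of 28454 gene symbols measured. The set was chosen by name, with earlier results of these data known. CD31 is an endothelial surface protein encoded by Pecam1, and B16F10 is a mouse melanoma cell line. The 4 wild-type libraries carry the strain label Cdh5-CreERt2, a tamoxifen-inducible Cre recombinase driven by the endothelial gene Cdh5. The 6 Shb-inactivated libraries are labelled Shbflox/flox/Cdh5-CreERt2, so all 10 libraries share the Cre and the tumour line, and all mice were adult. Shb encodes an SH2-domain adaptor protein of tyrosine kinase receptor signalling. Cells bearing CD11b, the myeloid protein encoded by Itgam, were depleted before the CD31 selection. The tissue label is tumour, while the source name also mentions lungs, and how the Cre was induced is not given in the sources used here. Of the 37 genes, 36 reached 1 FPKM in 4 or more libraries and were tested, as 12805 genes did. The one that did not pass was Oas3.

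Type I interferons act through the receptor IFNAR1/IFNAR2 and the kinases JAK1 and TYK2. Among the proteins these phosphorylate is STAT2, which with IRF9 forms part of a complex that binds the interferon-stimulated response element (ISRE) in gene promoters. Interferon gamma acts through IFNGR1/IFNGR2, JAK1 and JAK2, and the response reaches genes through the gamma-activated site (GAS). Endothelial cells carry both receptors and respond to both kinds.

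The libraries differed in ways other than genotype. FPKM, which scales fragments to transcript length and to the mapped fragments of the library, summed to 477329 to 576687 per library, and read depth is unknown. Shb was 2.78 to 5.44 FPKM in wild type and 0.37 to 1.44 FPKM in Shb-inactivated libraries, with no overlap. The labels state that Shb was inactivated in endothelial cells and give no Shb values. Pecam1 was at least 569 FPKM in every library. Itgam was 109 FPKM in wild type 3, 29.3 in Shb-inactivated 3 and 35.9 in Shb-inactivated 4, and at most 5.85 FPKM in the other 7 libraries. Wild type 1 and Shb-inactivated 1 and 2 had 12 or 13 of 41 small nucleolar RNA symbols above 0, against 22 to 33 in the others. Results are given with and without these libraries where they matter.

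Many of these genes hold the letters of an interferon response element in their promoters. RefSeq promoter sequences (GRCm38.p6, 250 bases before to 50 after the start) matched 27 of the 37 genes. The ISRE core GAAANNGAAA, searched on both strands, stood in 16 of the 27 (59.3%) and in 1079 of all 27025 promoter symbols (3.99%). The GAS core TTCNNNGAA, which reads the same on both strands, stood in 7 of the 27 (25.9%) and in 2582 of all (9.55%). Oas1a, Gbp5, Igtp and Bst2 held both cores, which share bases in Bst2, and Ifit2, Irf1 and Ifi35 held the GAS core alone. The promoters of 6 genes are shown, 130 bases each up to the base before the start, written in the direction of transcription with the ISRE core in capitals on whichever strand it was found. Ifit1, Isg15, Rsad2 and Gbp3 are of the class of genes described below as high in Shb-inactivated 5 and 6, Igtp is of the class with neither pattern, and Oas3 follows Itgam.
Ifit1, chr19:34640759-34640888, plus strand: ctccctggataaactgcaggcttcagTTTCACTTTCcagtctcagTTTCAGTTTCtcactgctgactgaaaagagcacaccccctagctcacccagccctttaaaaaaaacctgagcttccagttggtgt
Isg15, chr4:156200819-156200948, minus strand: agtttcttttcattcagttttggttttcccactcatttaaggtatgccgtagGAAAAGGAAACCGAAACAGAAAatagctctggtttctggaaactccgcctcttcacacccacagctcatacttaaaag
Rsad2, chr12:26456453-26456582, minus strand: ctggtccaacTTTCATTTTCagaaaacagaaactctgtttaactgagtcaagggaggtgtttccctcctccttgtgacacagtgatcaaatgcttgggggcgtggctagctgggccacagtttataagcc
Gbp3, chr3:142559914-142560043, plus strand: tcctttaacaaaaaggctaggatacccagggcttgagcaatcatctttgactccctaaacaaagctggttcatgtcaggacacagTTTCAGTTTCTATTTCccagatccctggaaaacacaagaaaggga
Igtp, chr11:58199426-58199555, plus strand: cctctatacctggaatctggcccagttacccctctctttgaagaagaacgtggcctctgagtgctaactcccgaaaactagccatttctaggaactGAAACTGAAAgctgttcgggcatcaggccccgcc
Oas3, chr5:120777660-120777789, minus strand: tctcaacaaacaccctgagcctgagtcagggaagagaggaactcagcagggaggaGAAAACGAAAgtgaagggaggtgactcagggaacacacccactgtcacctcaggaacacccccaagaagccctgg
Isg15 has 3 overlapping cores, Ifit1 has 2 separate cores and Gbp3 has 2 overlapping ones. A match to these letters describes the sequence and is not a measurement of binding.

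In 5 libraries these genes stood together above the others: wild type 3 and Shb-inactivated 3, 4, 5 and 6. In wild type 1, 2 and 4 and Shb-inactivated 1 and 2 most of them lay close together. The median ratio of highest to lowest was 1.40 on FPKM + 1, a scale that makes the ratios of low genes smaller. For 24 of the 36 tested genes (66.7%) the 5 highest libraries were exactly those 5, which held for 2.62% of all tested genes. Shb-inactivated 5 was the highest library for 23 of the 36 (63.9%, against 18.2% of all tested genes), and wild type 3 for 11 (30.6%, against 13.3%). Shb-inactivated 4 was the highest for the remaining ones, Ifit2 and Ifit3. The genes and the division of the libraries were chosen with earlier results of these data known, so these shares carry no test. In these bulk samples, more cells of a responding type and more RNA per cell cannot be told apart. Wild type 1 and Shb-inactivated 1 and 2, which had the fewest small nucleolar RNA symbols above 0, were all outside the 5 high libraries. The part of that difference in the division of the libraries was not tested.

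**Figure D1:**
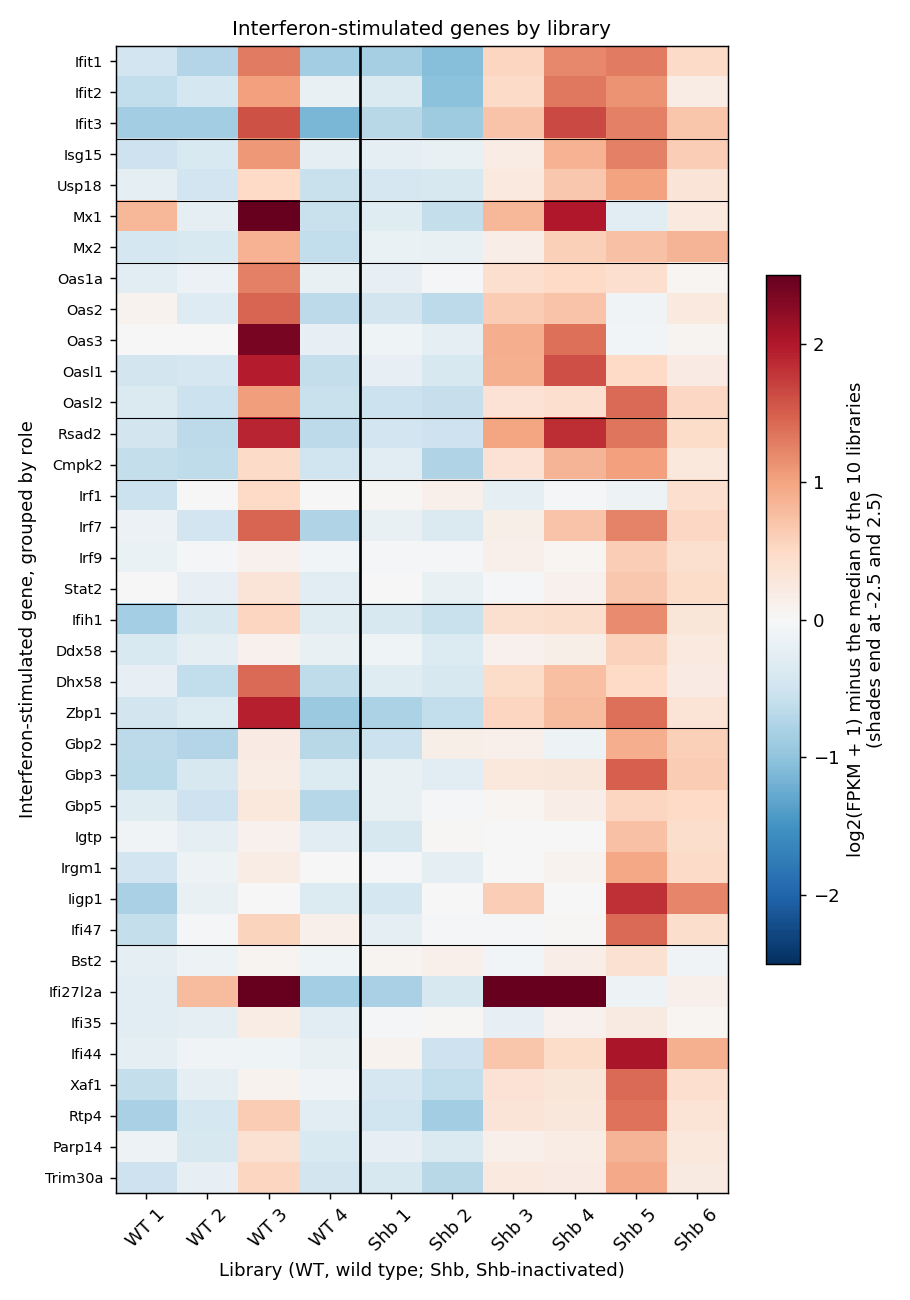
Heat map of log2(FPKM + 1) minus the median of the 10 libraries for the 37 interferon-stimulated genes, grouped by role (rows) in each library (columns; WT, wild type; Shb, Shb-inactivated). Red cells gather in wild type 3 and Shb-inactivated 3 to 6. The rows of the guanylate-binding proteins and immunity-related GTPases are reddest in Shb-inactivated 5.

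The genes of the IFIT proteins, which bind foreign RNA and block its translation, were high in all 5 of these libraries. These 3 genes lie within 99.3 kb on chromosome 19 (34550694 to 34650009, GRCm38). Ifit3 was 4.0, 4.04, 26.7 and 3.14 FPKM in wild type 1 to 4 and 4.68, 3.98, 13.9, 27.8, 20.9 and 13.8 FPKM in Shb-inactivated 1 to 6. Its 5 high libraries were all at least 13.8 FPKM and its 5 low ones at most 4.68 FPKM. Both genotypes held high and low libraries, and the low Shb-inactivated ones, 1 and 2, were those with few small nucleolar RNA symbols. Ifit1 was 4.06, 3.27, 16.2 and 2.86 FPKM in wild type 1 to 4 and 2.98, 2.38, 9.23, 15.1, 16.3 and 8.82 FPKM in Shb-inactivated 1 to 6, with Shb-inactivated 5 and wild type 3 level at the top. Ifit2 was 8.29, 9.5, 28.2 and 11.6 FPKM in wild type 1 to 4 and 10.1, 6.0, 19.0, 34.8, 30.2 and 15.3 FPKM in Shb-inactivated 1 to 6, with Shb-inactivated 4 the highest. Reads of Ifit3 may be shared with its near-identical neighbour Ifit3b, which was 1.19, 1.06, 4.56 and 0.82 FPKM in wild type 1 to 4 and 1.28, 0.99, 3.35, 6.82, 8.59 and 4.4 FPKM in Shb-inactivated 1 to 6.

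Isg15 encodes a ubiquitin-like protein that is conjugated to other proteins. Usp18 encodes the protease that removes it and restrains the type I receptor. Both genes were high in the same 5 libraries. Isg15 was 8.84, 9.78, 28.9 and 11.1 FPKM in wild type 1 to 4 and 11.1, 11.4, 15.1, 24.8, 32.8 and 20.5 FPKM in Shb-inactivated 1 to 6. Usp18 was 9.24, 7.64, 16.1 and 7.2 FPKM in wild type 1 to 4 and 8.03, 8.23, 13.3, 18.2, 23.4 and 14.1 FPKM in Shb-inactivated 1 to 6. Both were highest in Shb-inactivated 5, and the lowest of their 5 high libraries lay above the highest of the other 5.

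Rsad2, which encodes viperin, and its neighbour Cmpk2, a mitochondrial nucleotide kinase, lie within 37.1 kb on chromosome 12 (26442746 to 26479837). Rsad2 was 7.94, 6.8, 44.8 and 6.73 FPKM in wild type 1 to 4 and 7.78, 7.51, 23.2, 42.7, 29.8 and 15.7 FPKM in Shb-inactivated 1 to 6. Cmpk2 was 4.92, 4.76, 11.4 and 5.32 FPKM in wild type 1 to 4 and 6.48, 4.33, 10.5, 15.2, 17.2 and 9.64 FPKM in Shb-inactivated 1 to 6. Wild type 3 was the highest library for Rsad2 and Shb-inactivated 5 for Cmpk2.

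Several Mx and OAS genes were highest in the libraries with Itgam. Mx proteins are dynamin-like GTPases that trap viral components, and OAS enzymes make the oligoadenylates that activate RNase L. Mx1 was 2.22, 0.53, 11.3 and 0.23 FPKM in wild type 1 to 4 and 0.46, 0.20, 2.21, 6.24, 0.50 and 1.13 FPKM in Shb-inactivated 1 to 6, so Shb-inactivated 5 was among the low libraries. Mx2, annotated as a polymorphic pseudogene in GENCODE vM21, was 1.12, 1.2, 4.21 and 0.87 FPKM in wild type 1 to 4 and 1.55, 1.51, 2.22, 3.33, 3.77 and 4.17 FPKM in Shb-inactivated 1 to 6, with all 5 of the libraries named above on top.

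Among the OAS genes, Oasl2 was 9.77, 8.55, 27.6 and 8.46 FPKM in wild type 1 to 4 and 8.54, 8.35, 16.9, 17.5, 36.1 and 18.8 FPKM in Shb-inactivated 1 to 6, with its highest value in Shb-inactivated 5. Oas1a was 6.89, 7.59, 21.8 and 7.36 FPKM in wild type 1 to 4 and 7.24, 8.29, 11.8, 12.5, 11.8 and 8.81 FPKM in Shb-inactivated 1 to 6, and its near-identical Oas1 copies make its share of reads uncertain. Oas3, below the filter, was 0.29, 0.28, 5.68 and 0.11 FPKM in wild type 1 to 4 and 0.19, 0.10, 1.4, 2.32, 0.23 and 0.35 FPKM in Shb-inactivated 1 to 6. Wild type 3 and Shb-inactivated 3 and 4 thus stood apart for Oas3, and Shb-inactivated 5 and 6 did not exceed 0.35 FPKM. Oas2 ran from 0.50 to 5.45 FPKM and Oasl1 from 1.87 to 15.9 FPKM, both with their 3 highest values in wild type 3 and Shb-inactivated 3 and 4. Oas1a, Oas2 and Oas3 lie within 177 kb on chromosome 5 (120730333 to 120907521).

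Of the transcription factors, Irf7 varied more than Irf1, Irf9 and Stat2. Irf1, which responds mostly to interferon gamma, was 47.4, 69.8, 98.0 and 69.3 FPKM in wild type 1 to 4 and 70.8, 76.3, 58.4, 67.1, 63.5 and 93.5 FPKM in Shb-inactivated 1 to 6, with no separation of the libraries. Irf9, the DNA-binding part of the ISRE complex, was 19.8, 21.6, 24.3 and 21.3 FPKM in wild type 1 to 4 and 21.8, 21.8, 24.8, 23.2, 35.1 and 29.9 FPKM in Shb-inactivated 1 to 6. Irf7, the amplifier of type I interferon genes, was 14.6, 11.3, 46.2 and 9.29 FPKM in wild type 1 to 4 and 14.1, 12.4, 18.1, 27.2, 39.8 and 23.7 FPKM in Shb-inactivated 1 to 6. Irf9 was highest in Shb-inactivated 5 and 6, and Irf7 in wild type 3 and Shb-inactivated 5. Stat2, the partner of IRF9, ran from 5.77 to 12.2 FPKM and was also highest in Shb-inactivated 5 and 6.

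Of the sensors of foreign nucleic acid, Ddx58 (RIG-I) was 22.5, 25.3, 32.3 and 25.8 FPKM in wild type 1 to 4 and 27.4, 23.3, 32.2, 33.0, 44.9 and 35.6 FPKM in Shb-inactivated 1 to 6. Ifih1 (MDA5) was 6.29, 8.92, 17.9 and 9.61 FPKM in wild type 1 to 4 and 8.92, 7.87, 16.4, 16.8, 28.8 and 15.2 FPKM in Shb-inactivated 1 to 6. Both RNA helicases were highest in Shb-inactivated 5. Dhx58, their regulator LGP2, ran from 2.66 to 14.1 FPKM and Zbp1, a sensor of Z-form nucleic acid, from 1.73 to 19.0 FPKM, both highest in wild type 3.

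The guanylate-binding proteins and the immunity-related GTPases attack vacuoles of intracellular pathogens, and their genes respond strongly to interferon gamma. Shb-inactivated 5 was the highest library for all 7 of these genes. Iigp1 was 11.6, 18.2, 20.8 and 16.5 FPKM in wild type 1 to 4 and 15.1, 21.2, 32.7, 21.2, 77.1 and 50.1 FPKM in Shb-inactivated 1 to 6. Shb-inactivated 5 and 6 were its top libraries, and wild type 3 was no higher than Shb-inactivated 2 and 4. Irgm1 was 23.4, 30.4, 38.2 and 33.2 FPKM in wild type 1 to 4 and 32.7, 28.1, 33.2, 35.4, 66.2 and 46.6 FPKM in Shb-inactivated 1 to 6. Ifi47, within 235 kb of Irgm1 on chromosome 11 (48861968 to 49096974), was 12.8, 19.2, 29.9 and 21.9 FPKM in wild type 1 to 4 and 16.6, 19.5, 19.2, 20.4, 54.6 and 27.5 FPKM in Shb-inactivated 1 to 6. For both, Shb-inactivated 5 was the highest library. Igtp ran from 8.83 to 20.5 FPKM with Shb-inactivated 5 and 6 on top.

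Gbp2, Gbp3 and Gbp5 lie within 144 kb on chromosome 3 (142493978 to 142638008). Gbp2 was 13.5, 12.6, 25.2 and 12.9 FPKM in wild type 1 to 4 and 14.6, 24.2, 23.8, 19.6, 41.6 and 33.3 FPKM in Shb-inactivated 1 to 6. Gbp3 was 9.32, 11.4, 17.7 and 12.0 FPKM in wild type 1 to 4 and 13.4, 12.4, 18.6, 19.0, 45.2 and 24.4 FPKM in Shb-inactivated 1 to 6. Gbp5 was 1.97, 1.55, 3.35 and 1.24 FPKM in wild type 1 to 4 and 2.2, 2.52, 2.78, 3.1, 4.3 and 4.16 FPKM in Shb-inactivated 1 to 6. Shb-inactivated 5 and 6 were the 2 highest libraries for each, and wild type 3 was the highest of the wild-type libraries for each. How the authors' counting divided reads between the related copies of these families is not given.

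Other effectors fell into different patterns. Bst2, or tetherin, which holds budding virus at the cell surface, was the most abundant of the 37 genes and varied little: 129, 140.5, 161 and 144 FPKM in wild type 1 to 4 and 162, 168, 148, 172, 202 and 145 FPKM in Shb-inactivated 1 to 6. Ifi27l2a, a small mitochondrial protein of the ISG12 family, had the widest range in FPKM: 14.7, 31.4, 440.5 and 9.45 FPKM in wild type 1 to 4 and 9.66, 13.3, 202, 151, 16.1 and 19.6 FPKM in Shb-inactivated 1 to 6. Its 3 high libraries are those with Itgam, and Shb-inactivated 5 and 6 lay with the low ones.

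Ifi44 was low in wild type 3 and highest in Shb-inactivated 5: 9.21, 10.2, 10.1 and 9.54 FPKM in wild type 1 to 4 and 11.8, 7.33, 18.2, 15.5, 48.1 and 21.0 FPKM in Shb-inactivated 1 to 6. Xaf1, an XIAP-binding protein that promotes cell death, was 23.8, 31.4, 39.0 and 34.6 FPKM in wild type 1 to 4 and 27.3, 23.6, 47.2, 45.8, 99.5 and 49.8 FPKM in Shb-inactivated 1 to 6. Rtp4, a receptor transporter protein, was 12.8, 16.9, 36.5 and 18.9 FPKM in wild type 1 to 4 and 16.1, 12.2, 29.0, 28.3, 61.1 and 29.8 FPKM in Shb-inactivated 1 to 6. Trim30a, a TRIM-family protein with near-identical neighbours, was 19.1, 24.0, 40.8 and 20.1 FPKM in wild type 1 to 4 and 20.9, 16.9, 33.0, 32.3, 54.7 and 32.5 FPKM in Shb-inactivated 1 to 6. Shb-inactivated 5 led for all 4 genes. Parp14, an ADP-ribosyltransferase, ran from 14.3 to 35.0 FPKM, and Ifi35 from 19.7 to 28.2 FPKM, each also highest in Shb-inactivated 5.

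**Figure D2:**
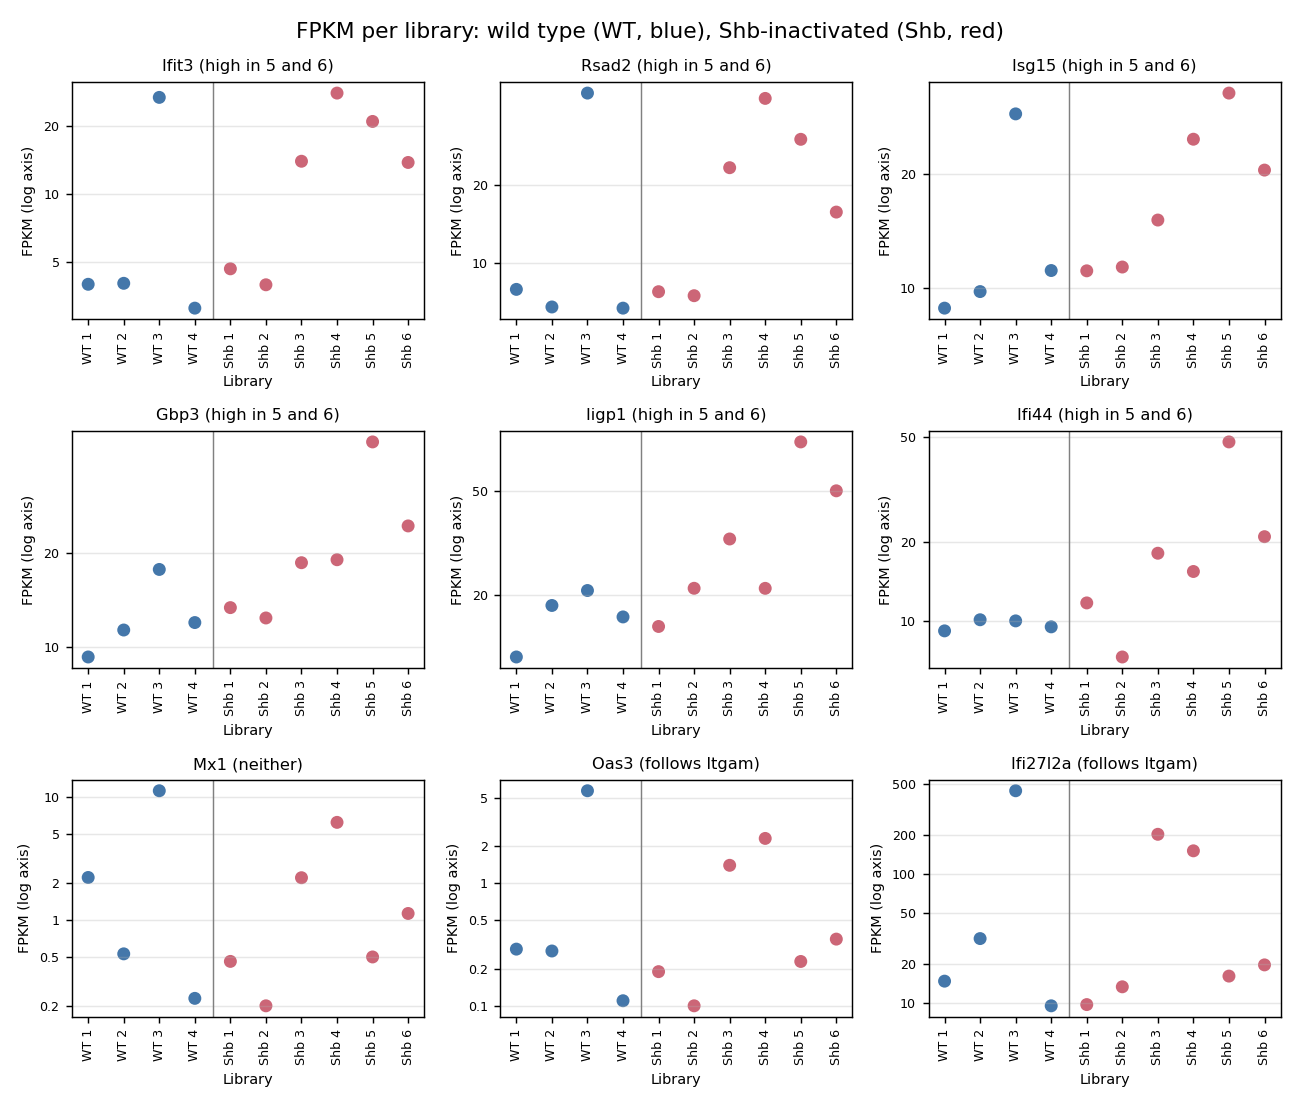
FPKM (log axis) of 9 of the genes in each library, with wild type in blue and Shb-inactivated in red; each point is 1 library and the panel title gives the class of the gene. Ifit3 and Rsad2 are high in 5 libraries, Iigp1 and Ifi44 mostly in Shb-inactivated 5 and 6, and Ifi27l2a and Oas3 in the 3 libraries with Itgam.

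A fixed ratio was used to describe which genes went with Itgam. On FPKM + 1, a gene was said to follow Itgam where wild type 3 and Shb-inactivated 3 and 4 each had at least 1.5 times the value of every other library. It was said to be high in Shb-inactivated 5 and 6 where both had at least 1.5 times the highest of the 5 libraries left, whatever its value in the 3 libraries with Itgam. These classes describe libraries, were set with earlier results of these data known, and carry no test. By this rule 2 of 37 followed Itgam (Oas3 and Ifi27l2a), 13 were high in Shb-inactivated 5 and 6, and 22 were neither. The 13 were Ifit1, Ifit3, Isg15, Mx2, Oasl2, Rsad2, Irf7, Ifih1, Zbp1, Gbp3, Iigp1, Ifi44 and Rtp4. Not all of these were high in the libraries with Itgam: relative to the highest of the 5 left, wild type 3 was at 0.87 for Ifi44 and 0.98 for Iigp1, and Shb-inactivated 4 at 1.00 for Iigp1. Of the 36 tested genes, 13 are 36.1%, where 0.289% of all tested genes (37 genes) had that pattern. Following Itgam was found for 1 of the 36 (2.78%), near the 3.42% of all tested genes. Both shares leave out genes that reached 1 FPKM in only 3 libraries, such as Oas3. The class also excludes genes whose value in Shb-inactivated 5 or 6 came near that of the libraries with Itgam. Wild type 3 by itself had at least 1.5 times the highest of the 5 left for 21 of the 37. The share of all tested genes that did so was not counted, so this number has no background beside it.

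The ratio decides the counts. At a ratio of 1, 4 genes followed Itgam, 30 were high in Shb-inactivated 5 and 6, and Mx1, Irf1 and Bst2 were neither. At a ratio of 2, Ifi27l2a followed Itgam, Ifit3 and Iigp1 were high in both, and 34 were neither. Just inside the 1.5 limit were Ifih1 at 1.52 and Rtp4 at 1.55, and just outside Usp18 and Gbp5, both at 1.47. On the Itgam side, Oas3 at 1.78 was just inside and Oasl1 at 1.33 just outside.

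The role groups differed in which library led. The medians given first are of ratios on FPKM + 1 to the highest of the 5 libraries left. The IFIT genes had a median ratio of 3.41 in wild type 3 and 3.42 in Shb-inactivated 5. The OAS genes had 2.65 in wild type 3 and 1.38 in Shb-inactivated 5. The GTPases of the GBP and IRG families had 1.15 and 1.97 in the same libraries, and 1.00 in both Shb-inactivated 3 and 4. The transcription factors had 1.27 and 1.58. Of the 37 genes, 24 were higher in Shb-inactivated 5 than in wild type 3. On FPKM + 1, the ratio of Shb-inactivated 5 to wild type 3 was 4.44 for Ifi44, 3.59 for Iigp1, 2.52 for Xaf1 and 2.47 for Gbp3. It was 0.04 for Ifi27l2a, 0.12 for Mx1, 0.18 for Oas3, 0.34 for Oas2 and 0.36 for Oasl1. Shb-inactivated 5 exceeded Shb-inactivated 6 in 31 of the 37. For this count and that of Shb-inactivated 5 over wild type 3, the share of all tested genes was not taken.

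**Figure D3:**
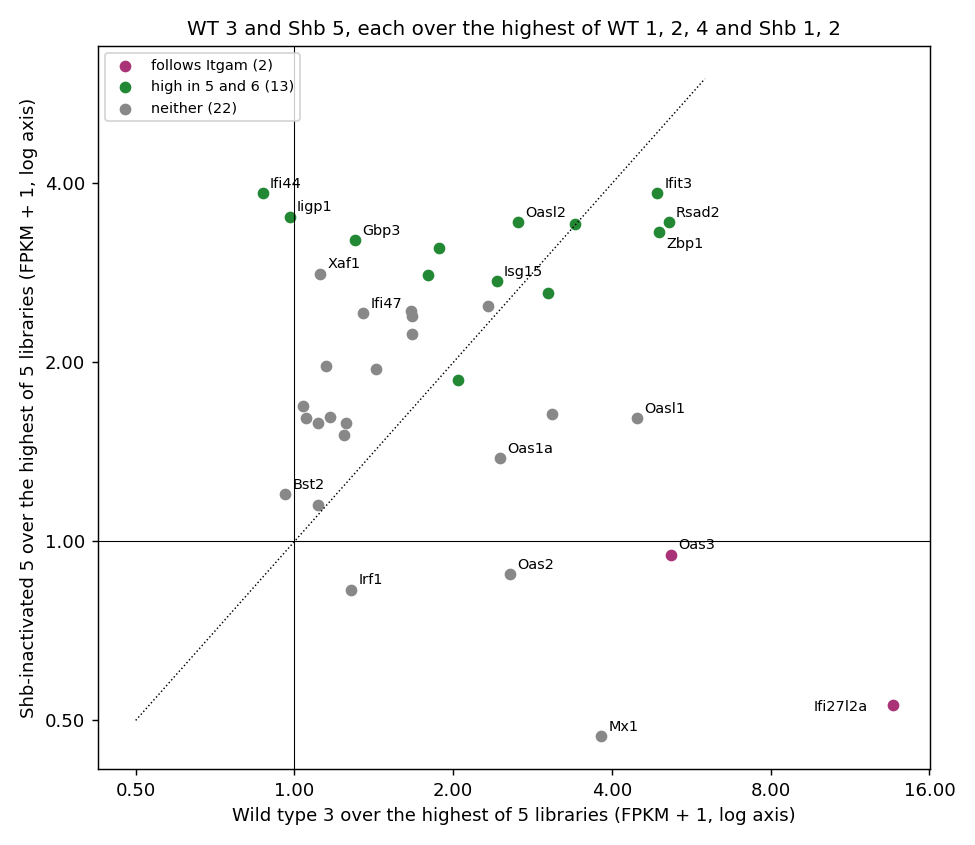
Each point is 1 of the 37 genes, placed by its FPKM + 1 in wild type 3 (x, log axis) and Shb-inactivated 5 (y, log axis) over the highest of wild type 1, 2 and 4 and Shb-inactivated 1 and 2; colours give the class and the dotted line marks equal ratios. Ifi44 and Iigp1 lie at the left with high values in Shb-inactivated 5, and Ifi27l2a and Mx1 at the lower right.

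The promoter letters were also counted by class. The ISRE core stood in 6 of the 9 matched promoters of the genes high in Shb-inactivated 5 and 6, in 9 of 17 with neither pattern and in 1 of 1 that followed Itgam. The GAS core stood in 0 of 9, 7 of 17 and 0 of 1. These counts are small and were not tested.

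Markers of other cells moved with part of this pattern. The 18 macrophage and monocyte genes, none of them at 0 in any library, summed to 70.7 to 7095 FPKM in wild type and 66.7 to 5203 FPKM in Shb-inactivated libraries. The sums were 7095, 5203 and 4505 FPKM in wild type 3 and Shb-inactivated 3 and 4, and 66.7 and 77.7 FPKM in Shb-inactivated 5 and 6, beside 101 and 81.6 FPKM in Shb-inactivated 1 and 2. Shb-inactivated 5 was the highest library for 23 of the 37 genes and had the lowest macrophage sum of all libraries. Neutrophil genes (10 of 10 found) summed to 1032 FPKM in wild type 3 and to at most 30 FPKM elsewhere, and Ly6g was at 0 in 8 libraries. Plasmacytoid dendritic cell genes (8 of 8 found, none at 0) summed to 18.8 to 51.6 FPKM in wild type and 12.2 to 34.6 FPKM in Shb-inactivated libraries, with 20.4 and 29.0 FPKM in Shb-inactivated 5 and 6. T and NK cell genes (14 of 14 found; Ncr1 at 0 in Shb-inactivated 2 and 3) summed to 17.4 to 53.1 and 8.4 to 40.6 FPKM. Conventional dendritic cell genes (8 of 8 found) summed to 33.2 to 52.6 and 23.7 to 50.8 FPKM, and B and plasma cell genes (8 of 8 found) to 79.5 to 192 and 18.5 to 139 FPKM. In at least 1 of the 5 libraries with high interferon-stimulated genes, each of these lists had a sum below that of some other library. The same held for the macrophage list above and for the lists below, so it sets no list apart. Melanoma genes (8 of 9 found) summed to 93.5 to 1232 and 14.1 to 428 FPKM, the lowest being Shb-inactivated 5. Endothelial genes (12 of 12 found) summed to 3080 to 4124 and 3685 to 5197 FPKM, the highest being Shb-inactivated 5. Shb-inactivated 1, 2 and 6 were at 4820, 5091 and 4118 FPKM. Wild type 3 and Shb-inactivated 3 and 4 were at 3203, 3685 and 3761 FPKM. Pericyte and fibroblast genes (8 of 8 found) summed to 54.4 to 231 and 32.1 to 323 FPKM, the highest again being Shb-inactivated 5. That highest sum was mostly Rgs5, at 277 FPKM. Col1a1 was 18.0 FPKM there and 127 FPKM in Shb-inactivated 6, so the list did not move as a whole. The part of any of these cells in the interferon-stimulated genes was not tested.

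The comparison of genotypes found no interferon-stimulated gene that changed. limma on log2(FPKM + 1) called 0 of the 36 tested genes at an adjusted p under 0.05, as it called 0 of all 12805 (0% called), and the adjusted p of the 36 ran from 0.989 to 0.997. At an unadjusted p under 0.05 there were 2 of the 36 (5.56%), near the 3.45% of all tested genes. Both were higher in Shb-inactivated libraries (1.69% of all tested genes) and none was lower (1.76%). The groups overlapped for all 36, and did not overlap for 0.718% of all tested genes. The log2 fold change, Shb-inactivated minus wild type, was above 0 for 33 of the 36 (91.7%), against 51.2% of all tested genes. Its median was 0.32, with a range of -0.38 to 0.88, against 0.0055 over all tested genes. Since genes of one pathway vary together from library to library, the 33 are not independent counts. The 12 endothelial markers were above 0 in 12 of 12 cases, with a median of 0.34, and their part in the values of the interferon-stimulated genes was not tested. The exceptions among the 36 were Mx1 at -0.38, Ifi27l2a at -0.19 and Oas2 at -0.08.

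Single libraries moved that median. It was 0.68 without wild type 3 and 0.16 without Shb-inactivated 5. Without Shb-inactivated 5 and 6 it was 0.13, without the 3 libraries highest in Itgam 0.54, and without the 3 with the fewest small nucleolar RNAs 0.56. With the macrophage and monocyte score as a covariate it was 0.44, and with the melanoma score 0.30. In none of these fits did a gene pass the threshold.

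The 6 genes with the smallest p were Gbp2, Gbp5, Iigp1, Gbp3, Ifi44 and Bst2. Gbp2 was 16 ± 6.1 FPKM (SD, n = 4) in wild type and 26.2 ± 9.74 FPKM (SD, n = 6) in Shb-inactivated libraries, a log2 fold change of 0.66 (SE 0.29, 95% interval 0.02 to 1.29). Its unadjusted limma p was 0.0447 and its exact permutation p, two-sided over 210 divisions into 4 and 6, was 0.0714. Gbp5 was 2.03 ± 0.931 FPKM (SD, n = 4) in wild type and 3.18 ± 0.869 FPKM (SD, n = 6) in Shb-inactivated libraries, a log2 fold change of 0.49 (SE 0.22, 95% interval 0.01 to 0.96). Its unadjusted limma p was 0.0474 and its exact permutation p 0.0619. Both differences were of the order of the spread between libraries, since wild type 3 lay among the Shb-inactivated values. The number of genes of the set with an unadjusted p under 0.05 depended on single libraries. It was 0 when any one of wild type 1, 2 or 4 or Shb-inactivated 3, 5 or 6 was left out, 2 without Shb-inactivated 4, 4 without Shb-inactivated 1, 6 without Shb-inactivated 2 and 12 without wild type 3, where all 36 genes were above 0. With library quality weights it was 13.

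Iigp1 was 16.8 ± 3.89 FPKM (SD, n = 4) in wild type and 36.2 ± 23.5 FPKM (SD, n = 6) in Shb-inactivated libraries, with a log2 fold change of 0.88 (95% interval -0.02 to 1.78) and an exact permutation p of 0.0857. Gbp3 was 12.6 ± 3.6 FPKM (SD, n = 4) in wild type and 22.2 ± 12.1 FPKM (SD, n = 6) in Shb-inactivated libraries, with a log2 fold change of 0.67 (95% interval -0.05 to 1.39) and an exact permutation p of 0.0905. Ifi44 was 9.74 ± 0.442 FPKM (SD, n = 4) in wild type and 20.3 ± 14.4 FPKM (SD, n = 6) in Shb-inactivated libraries, with a log2 fold change of 0.76 (95% interval -0.11 to 1.63) and an exact permutation p of 0.124. Shb-inactivated 5 was the highest library for each of these 3. Bst2 was 144 ± 13.2 FPKM (SD, n = 4) in wild type and 166 ± 20.6 FPKM (SD, n = 6) in Shb-inactivated libraries, with a log2 fold change of 0.20 (95% interval -0.06 to 0.46) and an exact permutation p of 0.0619.

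By role, the median log2 fold change was 0.56 for Rsad2 and Cmpk2, 0.49 for the 7 GTPases, 0.47 for the 3 IFIT genes and 0.43 for Isg15 and Usp18. It was 0.26 for the 8 other effectors, 0.25 for the 4 sensors, 0.22 for the 4 transcription factors, 0.17 for the 4 tested OAS genes and 0.05 for Mx1 and Mx2. Of the 13 genes high in Shb-inactivated 5 and 6 the median was 0.47, a value that the choice of these libraries favours. Of the 22 with neither pattern it was 0.25. The interval of every gene but Gbp2 and Gbp5 included 0, and for Ifit3 it spanned a log2 fold change of -0.65 to 2.21 and for Ifi27l2a -2.81 to 2.43. Changes of these sizes were therefore not excluded by the data.

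**Figure D4:**
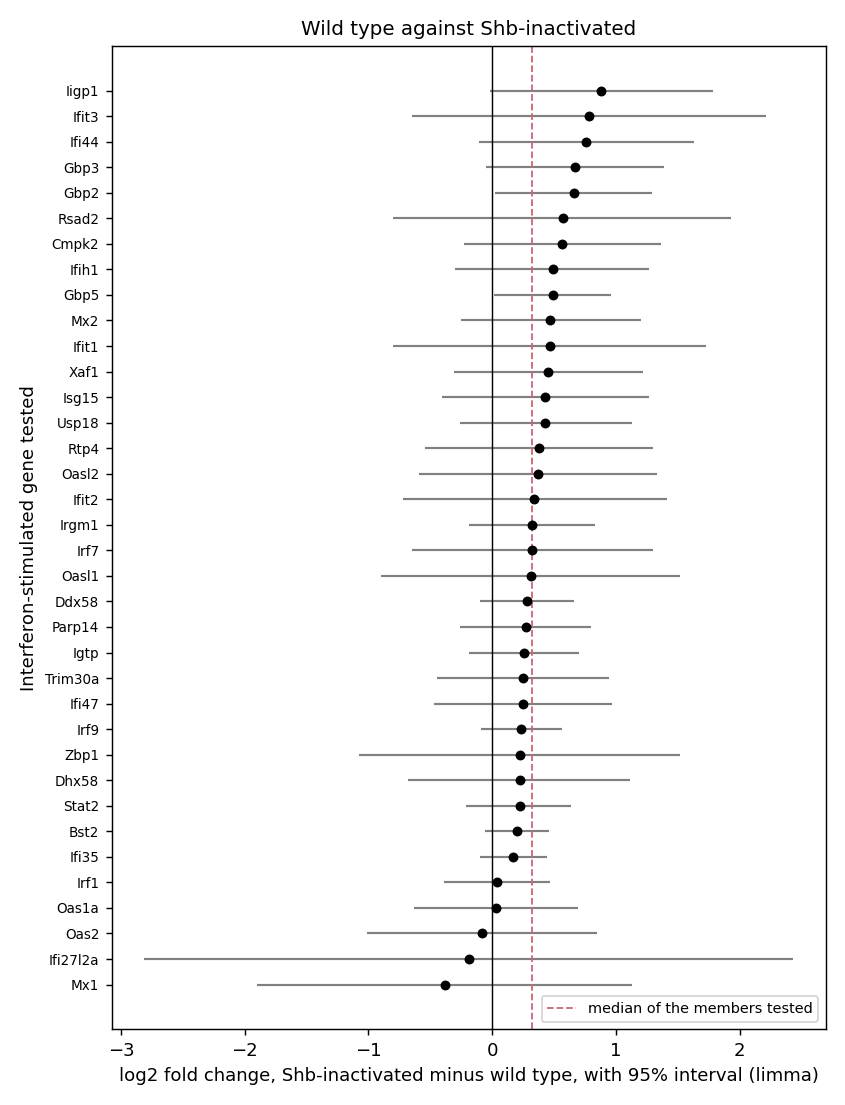
Log2 fold change on the log2(FPKM + 1) scale, Shb-inactivated minus wild type, with its 95% limma interval (bars) for the 36 tested genes; the dashed line marks their median of 0.32. Only the intervals of Gbp2 and Gbp5 lie wholly above 0.

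Interferon ligands were near 0 in most libraries, and only one was found above 1 FPKM. Of 21 listed ligand symbols, 12 stood in the files and none passed the filter. Ifnb1, which encodes interferon beta, was 0, 0.02, 4.34 and 0 FPKM in wild type 1 to 4 and 0.03, 0, 1.27, 4.93, 0.12 and 0.05 FPKM in Shb-inactivated 1 to 6. Its values above 0.12 FPKM were confined to wild type 3 and Shb-inactivated 3 and 4, the libraries with Itgam. Ifng, which encodes interferon gamma, was 0.83, 0.20, 0.06 and 0.46 FPKM in wild type 1 to 4 and 0.53, 0.27, 0.06, 0.14, 0.08 and 0.65 FPKM in Shb-inactivated 1 to 6. Values this low rest on few fragments. Ifng was lowest in 4 of the 5 libraries in which the interferon-stimulated genes were high, the other being Shb-inactivated 6. Ifne was at most 0.23 FPKM, Ifnk at most 0.25 and Ifnz at most 0.13. Ifna2, Ifna4, Ifna12, Ifna15, Ifna16, Ifnab and Ifnl2 were at most 0.10 FPKM in every library.

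The receptors were expressed in every library, except that of interferon lambda. Ifnar1 was 35.4, 39.9, 55.1 and 38.4 FPKM in wild type 1 to 4 and 40.3, 44.6, 46.6, 48.2, 50.6 and 39.1 FPKM in Shb-inactivated 1 to 6. Ifnar2 was 34.0, 51.3, 77.7 and 55.0 FPKM in wild type 1 to 4 and 51.7, 39.7, 73.1, 73.4, 84.7 and 54.3 FPKM in Shb-inactivated 1 to 6. Both chains of the type I receptor had their highest 2 values in wild type 3 and Shb-inactivated 5. Ifngr1 was 77.2, 87.6, 113 and 92.8 FPKM in wild type 1 to 4 and 87.8, 87.7, 103, 105, 113 and 92.0 FPKM in Shb-inactivated 1 to 6. Ifngr2 was 27.5, 44.3, 50.4 and 44.7 FPKM in wild type 1 to 4 and 46.9, 47.5, 51.2, 55.3, 53.6 and 43.4 FPKM in Shb-inactivated 1 to 6. Il10rb, the chain shared with interleukin 10, was 39.0, 47.9, 80.8 and 40.8 FPKM in wild type 1 to 4 and 42.2, 46.0, 89.5, 79.6, 61.9 and 47.2 FPKM in Shb-inactivated 1 to 6. For Il10rb the libraries with Itgam were the 3 highest. Ifnlr1, the lambda receptor chain, was at most 0.29 FPKM and was not tested. The log2 fold change was above 0 for all 5 tested receptor genes, with a median of 0.21, and none passed the threshold.

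Of the kinases and factors of the pathway, 0 of 8 passed the threshold and 6 of 8 were higher in the Shb-inactivated mean, with a median log2 fold change of 0.14. Jak1, the kinase common to all 3 receptor kinds, was 70.6, 73.4, 77.5 and 73.3 FPKM in wild type 1 to 4 and 86.6, 93.2, 83.1, 82.9, 101 and 82.0 FPKM in Shb-inactivated 1 to 6. The groups did not overlap, as for 0.539% of all tested genes in this direction, and Jak1 was 73.7 ± 2.86 FPKM (SD, n = 4) in wild type and 88.2 ± 7.6 FPKM (SD, n = 6) in Shb-inactivated libraries. Its log2 fold change was 0.25 (SE 0.09), with an exact permutation p of 0.00476, the smallest that 210 splits can give, and a limma p adjusted over all genes of 0.989. Pecam1, the endothelial gene used for the sort, also did not overlap between the groups, with a log2 fold change of 0.35 and the same exact permutation p of 0.00476. Jak2, the interferon gamma receptor kinase, was 34.6, 44.0, 40.8 and 40.6 FPKM in wild type 1 to 4 and 40.5, 38.4, 42.9, 40.5, 58.3 and 54.2 FPKM in Shb-inactivated 1 to 6, with Shb-inactivated 5 and 6 on top.

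Inhibitors of the pathway did not lean to one side: the median log2 fold change was -0.05, with 3 of 8 above 0 and 0 past the threshold. Socs3, a feedback inhibitor of JAK kinases, was 70.2 ± 55.7 FPKM (SD, n = 4) in wild type and 74.5 ± 22.9 FPKM (SD, n = 6) in Shb-inactivated libraries. Ptpn11, the phosphatase SHP2, was 25.5 and 24.9 FPKM, and Irf2bp2, a corepressor of IRF2, 19.9 and 18.4 FPKM. Among the adaptors and sensors upstream of interferon production, 6 of 9 tested genes were above 0, with a median of 0.04 and 0 past the threshold. Tmem173 (STING) was 26.7 and 29.5 FPKM, the kinase gene Tbk1 22.6 and 22.9 FPKM, and the adaptor gene Myd88 16.9 and 17.6 FPKM. Tlr7, chosen after its values were seen, followed Itgam: it was at least 20.5 FPKM in wild type 3 and Shb-inactivated 3 and 4 and at most 2.33 FPKM in the others.

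**Figure D5:**
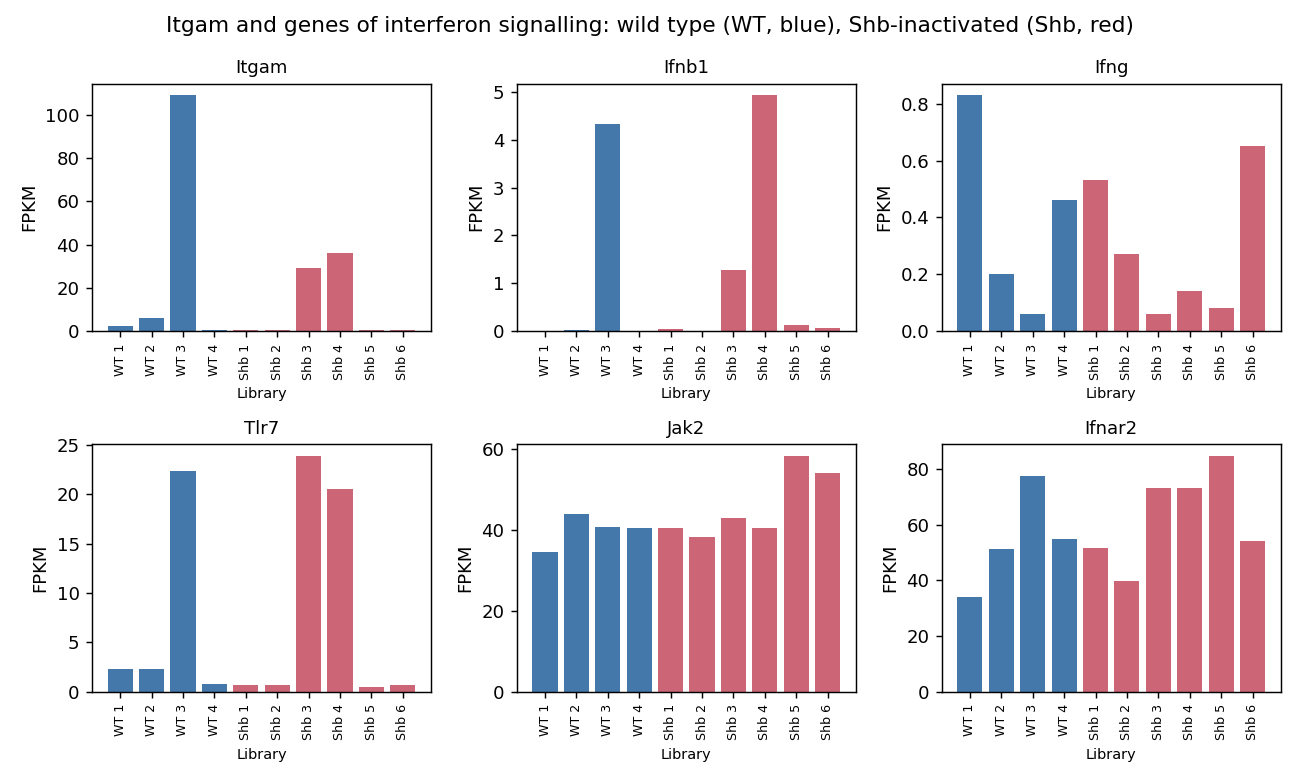
FPKM in each library (bars from 0; wild type blue, Shb-inactivated red) of Itgam, the ligands Ifnb1 and Ifng, the sensor Tlr7, the kinase Jak2 and the receptor chain Ifnar2. Itgam, Ifnb1 and Tlr7 are high in wild type 3 and Shb-inactivated 3 and 4, Jak2 is highest in Shb-inactivated 5 at 58.3 FPKM, and Ifng does not exceed 0.83 FPKM.

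A further list of 67 interferon-stimulated genes outside the 37 gave 63 found and 52 tested. Their median log2 fold change was 0.15, and 0 passed the threshold. Of the 52, 36 lay above 0, where 51.2% of all tested genes did. Ly6e, an inhibitor of viral entry, was 374 and 391 FPKM, and the membrane proteins Ifitm2 and Ifitm3 were 364 and 348, and 303 and 341 FPKM. Of the 63, 6 were high in Shb-inactivated 5 and 6 by the ratio of 1.5: Ifit3b, Gbp7, Tgtp1, Tgtp2, Apol9a and Apol9b. All but Apol9a were tested, which makes 5 of the 52, where 0.289% of all tested genes had that pattern. Tgtp1 was at most 2.43 FPKM in the 3 libraries with Itgam, Apol9a at most 0.77 and Apol9b at most 1.52, so these 3 were not high there. Slfn2, Slfn8 and Cd274 followed Itgam, where 3.42% of all tested genes did. Tgtp2, a GTPase of the IRG family, was 8.67, 7.66, 15.7 and 11.3 FPKM in wild type 1 to 4 and 10.7, 7.12, 12.3, 7.87, 32.1 and 22.9 FPKM in Shb-inactivated 1 to 6. Its value in Shb-inactivated 4 was among its low ones.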

How the data were processed

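RNA from CD31+ cells was sequenced in 10 libraries (TruSeq stranded total RNA kit with Ribo-Zero Gold, per the labels' protocols), and the series text gives 4 and 6 mice. The authors deposited FPKM per gene symbol, read here with a comma as the decimal mark. TopHat2 2.1.1 and Cufflinks 2.2.1 on build GRCm38 were used, per the submitters' processing notes. Annotation, strand use and read totals were not given in the sources used here, so a gene and its antisense partner cannot be told apart and no counting interval could be given.

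Values were taken as log2(FPKM + 1), which understates the fold change of low genes. Genes reaching 1 FPKM in 4 or more libraries were compared between genotypes with limma 3.58.1 in R 4.3.3 (mean-variance trend, no covariate, two-sided, Benjamini-Hochberg adjustment over all 12805 genes, threshold 0.05), after the step was tested on simulated data. Whether replicates shared litters or days is not stated, so p-values reflect only how these libraries vary. An exact permutation test, two-sided, over the 210 divisions into 4 and 6 was added for each gene named. Alternatives changed the pseudocount (0.1 or 5), filter, scaling, trend, weights, covariates, replicate block and libraries. Those leaving out 2 or 3 libraries together were chosen after seeing the data.

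The 37 genes, the pathway and marker lists and the split by library were chosen with earlier results of these data known. Values in every library are given for the 2 most abundant genes of each of 9 role groups, the 6 with the smallest p and up to 3 more of each class, and the others by range. Of the pathway lists, receptors, ligands above 0 and the 3 most abundant genes of each other list are named, except 1 that is not reported here. Gene positions are from GENCODE vM21 (GRCm38) and promoters from RefSeq (GRCm38.p6). Plots were drawn with matplotlib 3.10.9.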

Additional observations from a re-analysis of the deposited data

Results flagged for a closer look

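Among the wild-type libraries, wild type 3 stood apart from the other 3 for 10 of the 37 genes. On log2(FPKM + 1), its gap to the next library, as a share of the range of the group, was above the 95% critical value of Dixon's test for a group of 4, and the smallest of these 10 shares was 0.841. The values of wild type 3 were 26.7 FPKM for Ifit3, 4.21 for Mx2, 21.8 for Oas1a, 5.68 for Oas3 and 15.9 for Oasl1. They were 27.6 FPKM for Oasl2, 44.8 for Rsad2, 11.4 for Cmpk2, 25.2 for Gbp2 and 27.3 for Ifi35. No library of the Shb-inactivated group passed the critical value for a group of 6. Some gaps that did not pass were also wide, as for Ifit1 in wild type 3 (16.2 FPKM, the next library 4.06) and Ifi47 in Shb-inactivated 5 (54.5 FPKM, the next library 27.5). In all, 74 pairs of a gene and a group were examined, chance marks about 1 in 20, and these genes vary together from library to library. Wild type 3 also had the highest Itgam (109 FPKM) and the highest sum of macrophage and monocyte genes (7095 FPKM), and the part of those cells was not tested.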

How the results depend on the processing

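In all 25 alternatives 0 of the genes tested passed the threshold, and the smallest adjusted p of an interferon-stimulated gene was 0.84 to 1. Unadjusted p-values under 0.05 numbered 184 to 1022 over all genes, and 0 to 13 among the interferon-stimulated genes. Their median log2 fold change stayed above 0, from 0.24 (pseudocount 5) to 0.55 (library quality weights) in fits with every library and without the block, and from 0.16 to 0.68 when 1 library was left out. From 31 to 36 genes were above 0. Of 896 values of single genes under these alternatives, 43 turned in sign, in 7 genes. Quantile normalization gave -0.0041 for Irf1 and 0.09 for Oas2. Library quality weights gave 0.44 for Mx1, 0.41 for Oas2 and 0.58 for Ifi27l2a. The macrophage and monocyte score gave 0.10 for Oas2 and 0.41 for Ifi27l2a. The melanoma score gave -0.09 for Ifi47, 0.34 for Mx1, -0.04 for Irf1, 0.25 for Oas2 and 0.66 for Ifi27l2a. Leaving out the 3 libraries highest in Itgam gave 0.05 for Oas2. Leaving out the 3 with the fewest small nucleolar RNAs gave 0.04 for Mx1, -0.16 for Irf1, 0.22 for Oas2 and 0.11 for Ifi27l2a. Leaving out Shb-inactivated 5 and 6 gave -0.08 for Ifi47, -0.08 for Zbp1, -0.02 for Irf1 and 0.25 for Ifi27l2a. When 1 library was left out, the value ran from -0.14 to 0.21 for Irf1, -0.11 to 0.40 for Oas1a, -0.34 to 0.36 for Oas2, -0.80 to 0.30 for Mx1, -0.82 to 0.98 for Ifi27l2a and -0.11 to 0.85 for Zbp1. The cause was not tested. The split gave 4 genes that follow Itgam and 30 high in Shb-inactivated 5 and 6 at a ratio of 1, and 1 and 2 genes at a ratio of 2.

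No wild-type library was most like the Shb-inactivated library of the same number. The correlations of same-numbered libraries, on deviations from the group means, were 0.436, -0.319, 0.707 and -0.546. The best match of wild type 1 to 4 was Shb-inactivated 2, 5, 4 and 5. These values cannot show whether same-numbered mice shared a litter or day, since the libraries also differed in other ways, such as in Itgam. With the replicate block, which gives no weight to Shb-inactivated 5 and 6, the median was 0.13, with 31 genes above 0 and 0 past the threshold, and -0.08 for Ifi47, -0.08 for Zbp1, -0.02 for Irf1 and 0.25 for Ifi27l2a. The block changed no call. Depth is unknown, so low genes such as the ligands, Mx1 and Oas3 are the least certain.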

Other observations

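Values at least 1.5 times as high in both Shb-inactivated 5 and 6 as in the highest of the 5 libraries left were found for 37 of 12805 tested genes, of which 13 are among the 37 interferon-stimulated genes described above, 5 on the further lists of the pathway and 19 on no list. Being on no list does not set a gene apart from the interferon response, since Ddx60 and Gvin1, for example, are known to respond to interferon. The genes named here were chosen after their values were seen, so the values carry no test. Among the 19 were 2 adhesion receptors that activated endothelium shows to leukocytes. Sele, encoding E-selectin, was 1.47, 3.6, 26.7 and 2.43 FPKM in wild type 1 to 4 and 4.78, 3.69, 15.1, 9.75, 12.3 and 12.5 FPKM in Shb-inactivated 1 to 6. Selp, encoding P-selectin, was 2.97, 3.34, 14.3 and 1.37 FPKM in wild type 1 to 4 and 4.4, 4.71, 12.2, 6.78, 10.03 and 12.3 FPKM in Shb-inactivated 1 to 6. For both, the 5 highest libraries were those in which the interferon-stimulated genes were high. Ackr1, a chemokine-binding receptor of venules, was 1.36, 2.22, 6.22 and 0.86 FPKM in wild type 1 to 4 and 4.3, 3.29, 6.66, 1.95, 14.1 and 8.8 FPKM in Shb-inactivated 1 to 6. It was highest in Shb-inactivated 5 and 6, and Shb-inactivated 4 was among the low libraries.

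Of the others, Cfb, complement factor B, was 5.25, 5.7, 35.0 and 3.7 FPKM in wild type 1 to 4 and 5.02, 4.68, 14.8, 11.3, 10.7 and 10.8 FPKM in Shb-inactivated 1 to 6. Il6, encoding interleukin 6, was 3.96, 30.02, 76.0 and 28.8 FPKM in wild type 1 to 4 and 16.04, 32.0, 52.4, 40.6, 62.7 and 50.3 FPKM in Shb-inactivated 1 to 6, with the same 5 libraries on top. Ddx60, a helicase that assists RIG-I, was 2.05, 2.07, 11.1 and 1.84 FPKM in wild type 1 to 4 and 2.03, 1.73, 7.96, 5.67, 6.5 and 4.6 FPKM in Shb-inactivated 1 to 6. Casp4, an inflammatory caspase that senses lipopolysaccharide, was 8.03, 11.5, 33.8 and 7.74 FPKM in wild type 1 to 4 and 6.79, 7.01, 22.3, 21.2, 19.8 and 17.9 FPKM in Shb-inactivated 1 to 6. For Cfb, Il6, Ddx60 and Casp4 wild type 3 was the highest library, as it was for Sele and Selp. Tagln, a smooth muscle gene, was 8.08, 15.0, 6.07 and 16.9 FPKM in wild type 1 to 4 and 10.3, 12.3, 6.33, 5.95, 34.2 and 25.9 FPKM in Shb-inactivated 1 to 6. The 2 libraries highest in Tagln, Shb-inactivated 5 and 6, had sums of the pericyte and fibroblast genes of 323 and 288 FPKM. Of these sums Rgs5 was 277 and 139 FPKM, and Col1a1 18.0 and 127 FPKM. The part of pericytes or fibroblasts was not tested. The remaining ones of the 19, such as Fmo2, Clca3a1, Atp8b1 and Pgm5, are not described.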
